A study of Mus musculus with 33 samples.

Results

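The 8 genes described here are 6 enzymes of cholesterol synthesis (Hmgcs1, Idi1, Fdft1, Sqle, Lss and Cyp51) and 2 regulators of that pathway (Srebf2 and Insig1). They were taken by name from a count table of 17982 mouse genes and followed across 9 RNA libraries, and also in the fold-change tables that the authors deposited for induced osteoblasts (iOB) and for GFP-positive iOB. All 8 passed the filter on low counts, which kept 13438 genes.

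The study turned tail-tip fibroblasts into induced osteoblasts and compared the product with cultured osteoblasts. It holds 33 samples, of which 15 are poly-A RNA libraries in groups of 3, and the count table covers 9 of them. The iOB were tail-tip fibroblasts of Col2.3GFP mice, in which a Col1a1 promoter fragment switches on GFP in the osteoblast lineage. They received a transcription factor gene by lentivirus, were washed after 24 hours, split on day 3 and moved to osteogenic medium on day 5, with no harvest day given. The labels used here do not name the factor, and none of the groups used here is labelled as empty virus or as osteogenic medium alone. The calvarial-OB came from calvarial progenitor cells grown towards osteoblasts and carry the mark of a second dataset in their titles, so the effect of dataset cannot be told apart from that of cell type. The fibroblasts were tail-tip fibroblasts, described in the labels with the same Col2.3GFP source, expanded and frozen before use. A sort of iOB for GFP gave iOB GFP+ libraries, which are known here through the authors' fold changes only, and the bone chip GFP+ libraries were not analysed here. Nothing says that libraries of a group came from separate cultures or animals, so p-values measure the spread between these libraries, which may be technical.

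Cells make cholesterol from acetyl-CoA. Hmgcs1 forms HMG-CoA, an early intermediate, and Idi1 makes one of the isoprenoid units from which farnesyl diphosphate is built. Fdft1 joins farnesyl diphosphate into squalene, Sqle oxidises squalene, Lss closes the rings to give lanosterol, and Cyp51 removes a methyl group from lanosterol. Srebf2 encodes SREBP2, the transcription factor that switches these enzymes on when sterols are low. Insig1 encodes the protein that holds SREBP2 and its escort Scap in the endoplasmic reticulum when sterols are high, and is itself an SREBP target gene. SREBP2 binds sterol regulatory elements, often near CCAAT boxes bound by NF-Y.

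The promoters of Hmgcs1, Insig1 and Srebf2 are printed because, among the members with a window, they hold a match to the sterol-element patterns searched. They also introduce the genes whose levels are given next. Other forms of the element were not searched for. RefSeq promoter windows of build GRCm38.p6 were matched by symbol for 6 members (not for Sqle and Fdft1) and run from 250 bases before to 50 after the start of the gene. The counts rest on build mm9 and no coordinates were converted. Capitals mark CACNCCAC or ATCACNCCA, and CCAAT, on either strand (ATTGG is CCAAT on the other strand), with N any base.
Hmgcs1, HMG-CoA synthase, chr13:119690101-119690400, plus strand: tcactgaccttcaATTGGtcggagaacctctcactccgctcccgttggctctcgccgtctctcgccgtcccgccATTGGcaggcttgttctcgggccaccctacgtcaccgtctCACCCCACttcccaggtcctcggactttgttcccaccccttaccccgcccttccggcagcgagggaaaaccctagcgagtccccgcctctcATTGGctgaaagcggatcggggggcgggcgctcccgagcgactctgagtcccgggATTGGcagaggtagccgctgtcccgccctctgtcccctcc
Insig1, the sterol-dependent retention protein, chr5:28071162-28071461, plus strand: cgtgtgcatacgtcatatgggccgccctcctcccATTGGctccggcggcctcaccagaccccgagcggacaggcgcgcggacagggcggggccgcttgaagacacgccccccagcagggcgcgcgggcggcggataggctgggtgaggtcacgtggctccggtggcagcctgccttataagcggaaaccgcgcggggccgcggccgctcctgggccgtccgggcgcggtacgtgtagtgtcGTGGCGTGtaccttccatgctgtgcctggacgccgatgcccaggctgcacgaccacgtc
Srebf2, the SREBP2 gene, chr15:82147019-82147318, plus strand: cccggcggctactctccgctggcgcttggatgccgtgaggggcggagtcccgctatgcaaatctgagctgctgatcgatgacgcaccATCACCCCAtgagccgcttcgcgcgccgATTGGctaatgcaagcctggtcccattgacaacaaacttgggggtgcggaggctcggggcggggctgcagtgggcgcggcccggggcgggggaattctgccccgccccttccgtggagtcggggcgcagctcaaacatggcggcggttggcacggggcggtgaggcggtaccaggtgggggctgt

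Among 7 motifs searched on both strands, CACNCCAC lay in the windows of Hmgcs1 (136 bases before the start, as CACCCCAC) and Insig1 (9 bases before the start, as GTGGCGTG on the printed strand), and in 6.24% of all 32851 windows. The longer TCACNCCAC, which contains it, lay in Hmgcs1 and in 1.24% of all windows. ATCACNCCA lay in Srebf2 (163 bases before the start, as ATCACCCCA) and in 0.868% of all windows, and the looser ATCACNCNA, which covers it, likewise in Srebf2 and in 2.43%. ATCACNCCA and CACNCCAC can share bases. CCAAT lay in all 6 member windows (4 copies in Hmgcs1, 2 in Idi1 and 1 in each of the other 4) and in 37.4% of all windows, and GGGCGG, an Sp1-type box, in all 6 and in 35.7%. The E-box CACGTG lay in Insig1 and in 7.15%. These matches describe letters in a window and are no measure of binding.

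The 9 libraries held 5646299 to 15023771 counts, and log CPM (counts scaled to the TMM-adjusted library total) across genes correlated at 0.967 to 0.991 between libraries of a group, lowest between calvarial-OB replicate 1 and both other libraries. Osteoblast markers (8 genes, summed CPM) ranged from 4079 to 4709 in iOB and from 4199.7 to 5083 in calvarial-OB, against 106 to 125 in fibroblasts. Behind these sums, 3 of 8 were higher and 2 lower in iOB than in calvarial-OB, beside 24.7% and 24.1% of all tested genes. Their log2 fold changes ran from -3.03 to 3.41. Other cell types were visible too. Macrophage markers (10 genes) summed to 2022 to 3264 CPM in iOB and 2926 to 5226 in calvarial-OB, against 38.5 to 79.8 in fibroblasts, and 10 of 10 were higher than in fibroblasts in both. Adipocyte markers (8 genes) summed to 59.4 to 70.1 CPM in iOB and 489 to 772 in calvarial-OB, against 46.4 to 54.3 in fibroblasts, where Adipoq, Cfd, Cidec and Lep were at 0, and Lep was also at 0 in iOB. Of the 7 adipocyte markers tested, 6 were higher and 1 lower in iOB than in fibroblasts, Adipoq at 12.1, 14.1 and 12.3 CPM in iOB and Fabp4 lower (log2 fold change -1.20), and 7 were higher in calvarial-OB. Cycling-cell markers (8 genes) summed to 171 to 208 CPM in iOB and 379 to 584 in calvarial-OB, against 450.1 to 673 in fibroblasts. Fibroblast markers (6 genes) summed to 8099 to 8923 CPM in iOB and 9100 to 9449 in calvarial-OB, against 25312 to 28657 in fibroblasts. The sum is mostly Fn1, and the markers went both ways: 5 of 6 were lower in iOB than in fibroblasts and 4 of 6 in calvarial-OB, Dcn was higher in both (log2 fold change 0.59 and 1.02), and Thy1 was not called in calvarial-OB (0.27). Epithelial markers (3 genes with values in the count table) stayed at or below 3.44 CPM in every library, with Krt5 at 0 in iOB and calvarial-OB and Cdh1 at 0 in fibroblasts. Endothelial markers (4 genes) summed to 2.94 to 5.73 CPM in iOB, 6.13 to 13.2 in calvarial-OB and 6.06 to 7.93 in fibroblasts. The part of these other cells in any value below was not tested, and in bulk RNA fewer cells of a type and less RNA per cell cannot be told apart.

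Insig1 and Sqle were higher in iOB than in fibroblasts, and most of the pathway enzymes were higher in calvarial-OB than in fibroblasts, while Srebf2 itself was not called against fibroblasts in either. A gene was called where edgeR's quasi-likelihood test gave an adjusted p (Benjamini-Hochberg, over all 13438 genes) below 0.05. In iOB against fibroblasts, 2 of 8 members were higher and 0 lower, where 22.7% of all tested genes were higher, 20.6% lower and 43.3% either. The members' median log2 fold change was 0.33, beside -0.04 over all tested genes, and 4 of 8 did not overlap between the groups, beside 63.0% of all tested genes. In calvarial-OB against fibroblasts, 6 of 8 members were higher and 0 lower, where 28.4% of all tested genes were higher, 27.4% lower and 55.8% either. Their median log2 fold change was 0.86, beside 0.02 over all tested genes, and 4 of 8 did not overlap, beside 60.5%. In iOB against calvarial-OB, 1 member was higher and 2 lower, where 24.7% of all tested genes were higher, 24.1% lower and 48.8% either. The median was -0.41, beside -0.03 over all tested genes, and 3 of 8 did not overlap, beside 55.5%. The iOB count against fibroblasts was 1 without fibroblast replicate 1 or iOB replicate 1. It was 4 without calvarial-OB replicate 1, which enters the shared estimate of the spread. Genes called over all numbered 5125, 4830 and 6729 in these fits, in that order, against 5820 in the fit as given. In iOB against calvarial-OB, 1 member was higher and 6 lower without calvarial-OB replicate 1, and upper-quartile scaling gave 0 higher and 4 lower. There 7205 and 6701 genes were called over all, against 6561 in the fit as given. In the fit as given, the count of higher members was near the background of higher genes in iOB and above it in calvarial-OB, each set against the same fibroblast libraries. Fold changes below are given on the log2 scale ± SE, with 3 libraries a group.

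**Figure D1:**
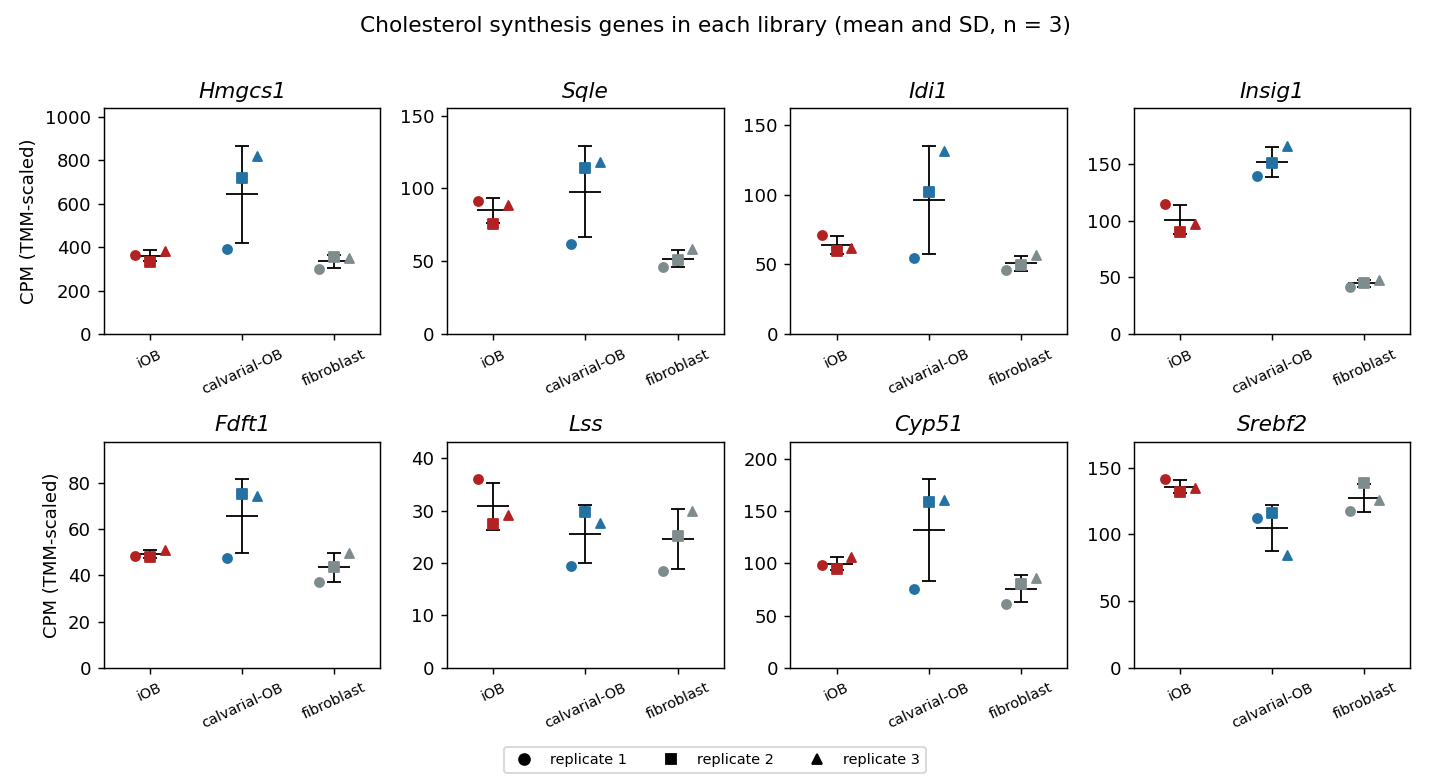
CPM (on TMM-scaled library sizes, vertical axes from 0) of each of the 8 genes in the 3 iOB, 3 calvarial-OB and 3 fibroblast libraries, with group mean and SD. Insig1 separates all 3 groups (90.4 to 115 in iOB, 139 to 166 in calvarial-OB and 41.6 to 47.4 in fibroblasts), and calvarial-OB replicate 1 lies well below replicates 2 and 3 for Hmgcs1, Sqle, Idi1, Fdft1 and Cyp51.

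Of the regulators, Insig1 changed most among the 8 in both comparisons with fibroblasts. Insig1 had 115, 90.4 and 97.3 CPM in iOB, 139, 150.4 and 166 in calvarial-OB, and 41.6, 45.2 and 47.4 in fibroblasts. No pair of groups overlapped, and every iOB and calvarial-OB library was above every fibroblast library. It was 2.25-fold higher in iOB than in fibroblasts (log2 fold change 1.17 ± 0.12 SE, edgeR adjusted p = 1e-05) and 3.40-fold higher in calvarial-OB than in fibroblasts (1.76 ± 0.12, adjusted p = 2.48e-07). Between the osteoblast groups it was lower in iOB than in calvarial-OB (-0.59 ± 0.12, adjusted p = 0.00126). All of these calls held under each of the 16 alternatives run.

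Srebf2 had 141, 132 and 134 CPM in iOB, 113, 116 and 84.8 in calvarial-OB, and 118, 139 and 126 in fibroblasts. The iOB and fibroblast values overlapped, whereas all calvarial-OB values lay below both other groups, with replicate 3 the lowest. The order of the means was iOB, fibroblast, calvarial-OB, and only its ends differed beyond the test's threshold. Srebf2 was higher in iOB than in calvarial-OB (log2 fold change 0.38 ± 0.13, edgeR adjusted p = 0.026), a call lost without iOB replicate 1, 2 or 3 (adjusted p = 0.0793, 0.0514 and 0.0606) and with upper-quartile scaling (0.0653), and over all alternatives its adjusted p spanned 0.00684 to 0.0793. Against fibroblasts it was 0.09 ± 0.13 in iOB (adjusted p = 0.579) and -0.29 ± 0.13 in calvarial-OB (adjusted p = 0.0714). The calvarial-OB value was -0.36 and called without calvarial-OB replicate 1 (adjusted p = 0.0295, range over alternatives 0.0295 to 0.238).

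Of the enzymes that lead up to farnesyl diphosphate, both members were higher in calvarial-OB and neither was called in iOB. Hmgcs1 had 362, 334 and 384 CPM in iOB, 392, 716 and 819 in calvarial-OB, and 299.7, 355 and 349 in fibroblasts. Its iOB and fibroblast libraries overlapped, and all calvarial-OB libraries were above both, although replicate 1 stood only just above the highest iOB library. Hmgcs1 was 1.92-fold higher in calvarial-OB than in fibroblasts (log2 fold change 0.94 ± 0.21, edgeR adjusted p = 0.00237) and lower in iOB than in calvarial-OB (-0.84 ± 0.21, adjusted p = 0.00617). In iOB against fibroblasts its fold change was 0.11 ± 0.21 (adjusted p = 0.714).

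Idi1 had 71.1, 59.4 and 61.5 CPM in iOB, 54.9, 102 and 131 in calvarial-OB, and 46.0, 49.6 and 56.4 in fibroblasts. Calvarial-OB spread over more than the range of the other groups, its replicate 1 lying below all iOB libraries and inside the fibroblast range, while iOB and fibroblasts did not overlap. Idi1 was higher in calvarial-OB than in fibroblasts (log2 fold change 0.93 ± 0.24, edgeR adjusted p = 0.00582). Its fold change was 0.34 ± 0.24 in iOB against fibroblasts (adjusted p = 0.286) and -0.59 ± 0.24 in iOB against calvarial-OB (adjusted p = 0.058). Both became calls without calvarial-OB replicate 1, at 0.37 (adjusted p = 0.0253, range 0.00888 to 0.512 over alternatives) and -0.83 (adjusted p = 0.000223, range 0.000223 to 0.316).

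From squalene onwards, Sqle was the member that was higher in both osteoblast groups. Sqle had 91.5, 75.5 and 88.5 CPM in iOB, 61.6, 114 and 118 in calvarial-OB, and 46.2, 51.3 and 58.2 in fibroblasts. Every iOB and calvarial-OB library exceeded every fibroblast library, and the osteoblast groups overlapped, with calvarial-OB replicate 1 below all iOB libraries. Sqle was 1.64-fold higher in iOB (log2 fold change 0.71 ± 0.21, edgeR adjusted p = 0.0153) and 1.89-fold higher in calvarial-OB (0.92 ± 0.21, adjusted p = 0.00248), each against fibroblasts. Leaving out fibroblast replicate 1 (0.63, adjusted p = 0.0581) or iOB replicate 1 (0.66, adjusted p = 0.0514) ended the iOB call, and its adjusted p spanned 0.000103 to 0.0581 over the alternatives. Sqle in iOB against calvarial-OB was -0.20 ± 0.20 (adjusted p = 0.435), and -0.40 and called without calvarial-OB replicate 1 (adjusted p = 0.0115, range 0.0115 to 0.964).

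Fdft1, squalene synthase, had 48.5, 48.2 and 51.2 CPM in iOB, 47.5, 75.4 and 74.3 in calvarial-OB, and 37.0, 43.8 and 49.5 in fibroblasts. The iOB libraries lay close together and overlapped both other groups. Fdft1 was 1.52-fold higher in calvarial-OB than in fibroblasts (log2 fold change 0.60 ± 0.17, edgeR adjusted p = 0.0094). It was 0.18 ± 0.17 in iOB against fibroblasts (adjusted p = 0.417) and -0.42 ± 0.17 in iOB against calvarial-OB (adjusted p = 0.0583), the last called at -0.56 without calvarial-OB replicate 1 (adjusted p = 0.00167, range 0.00167 to 0.203).

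Cyp51 had 98.6, 94.4 and 107 CPM in iOB, 75.6, 159 and 161 in calvarial-OB, and 61.3, 79.9 and 86.5 in fibroblasts. All iOB libraries were above all fibroblast libraries, and calvarial-OB replicate 1 fell within the fibroblast range. Cyp51 was higher in calvarial-OB than in fibroblasts (log2 fold change 0.80 ± 0.24, edgeR adjusted p = 0.0126), which ended when fibroblast replicate 1 (0.66, adjusted p = 0.0539) or calvarial-OB replicate 3 (0.63, adjusted p = 0.0514) was left out. Over the alternatives this p spanned 1.83e-05 to 0.0539. In iOB it was 0.40 ± 0.24 against fibroblasts (adjusted p = 0.20) and -0.40 ± 0.24 against calvarial-OB (adjusted p = 0.178). Both were called without calvarial-OB replicate 1, at 0.43 (adjusted p = 0.00989, range 0.00989 to 0.47) and -0.64 (adjusted p = 0.00135, range 0.00135 to 0.532).

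Lss, which stands between Sqle and Cyp51 in the pathway, was called in none of the 3 edgeR comparisons. Lss had 36.0, 27.4 and 29.1 CPM in iOB, 19.4, 29.8 and 27.6 in calvarial-OB, and 18.6, 25.2 and 30.0 in fibroblasts. All groups overlapped, and replicate 1 was the lowest library in both calvarial-OB and fibroblasts. Its log2 fold change was 0.32 ± 0.20 in iOB against fibroblasts (edgeR adjusted p = 0.217), 0.06 ± 0.20 in calvarial-OB against fibroblasts (adjusted p = 0.817) and 0.26 ± 0.20 in iOB against calvarial-OB (adjusted p = 0.301). The calvarial-OB value turned to -0.11 without fibroblast replicate 1 and to -0.04 without calvarial-OB replicate 2.

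**Figure D2:**
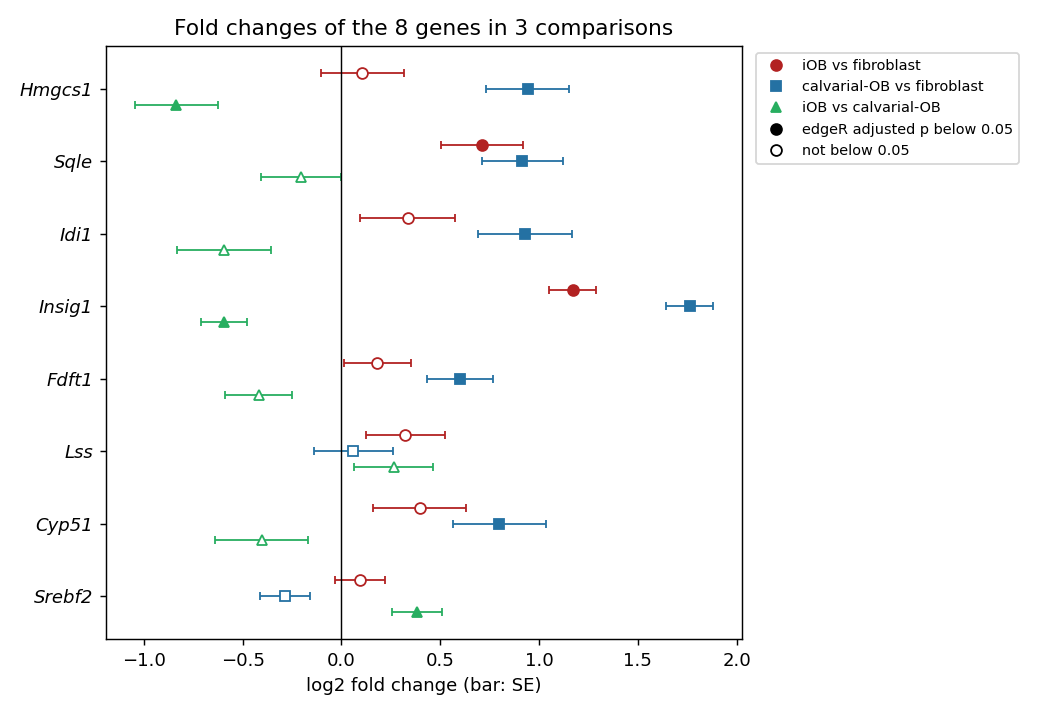
Log2 fold changes with SE (horizontal axis) of the 8 genes in iOB against fibroblasts, calvarial-OB against fibroblasts and iOB against calvarial-OB, with filled symbols for an edgeR adjusted p below 0.05. Filled symbols number 2, 6 and 3, and Insig1 is the gene that carries one in all 3 comparisons.

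Within a group, the members tended to be high or low in the same library. Fibroblast replicate 1 was the lowest of its group for 8 of 8 members, iOB replicate 2 for 8 of 8 and calvarial-OB replicate 1 for 7 of 8, where these libraries were the lowest for 35.9%, 32.2% and 39.6% of all tested genes. In calvarial-OB replicate 1 the members differed by a median of -0.78 on the log2 scale from the mean of both other libraries of the group, while the median of all tested genes was -0.01. Its CPM was 0.511 times the mean of replicates 2 and 3 for Hmgcs1, 0.470 times for Idi1, 0.472 times for Cyp51 and 0.532 times for Sqle. The ratio was 0.634 for Fdft1, 0.675 for Lss and 0.883 for Insig1, and Srebf2 was the exception at 1.12. By the same measure the members' median was -0.24 in fibroblast replicate 1 and -0.16 in iOB replicate 2.

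Marker sums also differed between libraries of a group. In calvarial-OB replicates 1, 2 and 3, cycling-cell markers summed to 379, 576 and 584 CPM, macrophage markers to 5226, 2926 and 3555, and adipocyte markers to 493, 489 and 772. In fibroblast replicates 1, 2 and 3, cycling-cell markers summed to 450.1, 571 and 673 CPM and macrophage markers to 79.8, 52.3 and 38.5. In iOB replicates 1, 2 and 3 the sums were 171, 208 and 179.6 CPM for cycling-cell markers and 2022, 3128 and 3264 for macrophage markers. Cycling-cell markers were thus lowest, and macrophage markers highest, in the low calvarial-OB and fibroblast libraries, whereas in iOB the low library had the highest cycling-cell sum. Their part in the members' values was not tested.

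**Figure D3:**
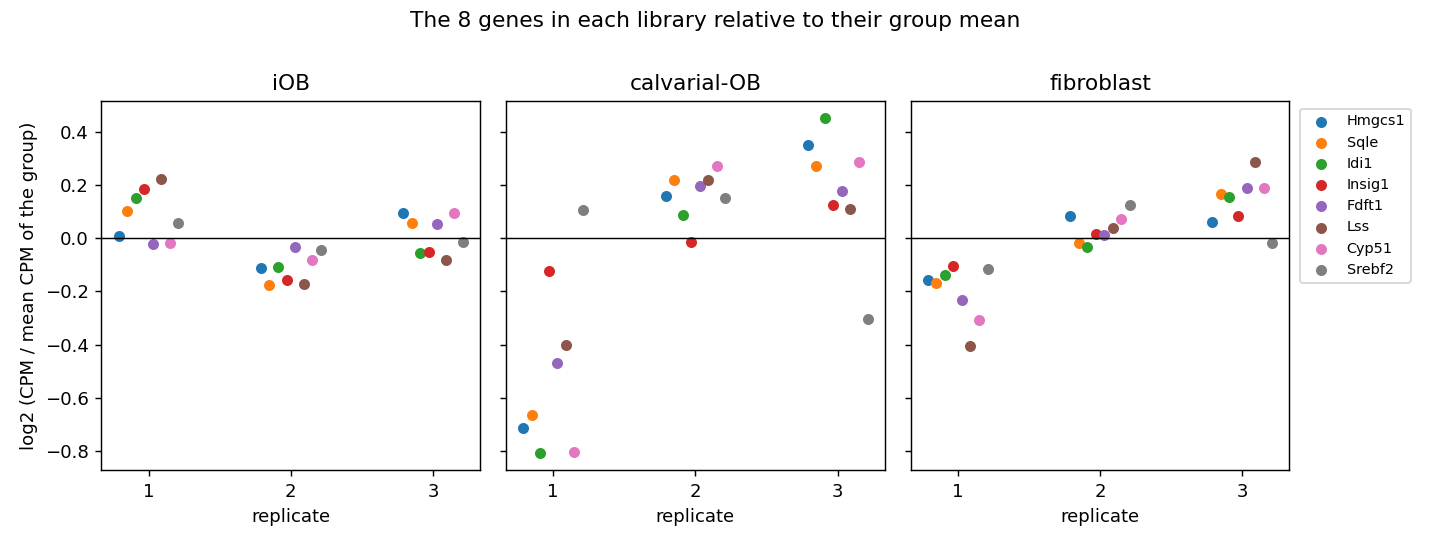
Log2 ratio of each gene's CPM to its group mean (vertical axis) in replicates 1, 2 and 3 of iOB, calvarial-OB and fibroblasts, one point per gene. Calvarial-OB replicate 1 holds most members far below 0, with Srebf2 above it, and fibroblast replicate 1 and iOB replicate 2 hold all 8 below 0.

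As a description over 9 libraries, which share group and depth differences, Pearson's r of a member's log2 CPM with the mean profile of the other 7 was 0.965 for Sqle, 0.962 for Cyp51, 0.905 for Fdft1 and 0.885 for Idi1. It was 0.773 for Hmgcs1, 0.724 for Insig1 and 0.578 for Lss, and -0.49 for Srebf2. Among tested genes outside all the lists used here, those with the highest r to the mean profile of the 8 were Stard7 (0.958), Mrps34 (0.957), Qrsl1 (0.945), Ccdc25 (0.945) and Smim7 (0.942). Stard7, the highest, had 51.4, 48.5 and 49.4 CPM in iOB, 48.7, 56.4 and 57.3 in calvarial-OB, and 43.6, 45.5 and 45.6 in fibroblasts, so its libraries differed by a smaller ratio than those of any of the 6 enzymes.

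Further along and beside these members, the pathway held more genes that were higher than lower against fibroblasts in both osteoblast groups. Of 15 further synthesis genes, 7 were higher and 0 lower in iOB than in fibroblasts, beside 22.7% and 20.6% of all tested genes. In calvarial-OB against fibroblasts 10 were higher and 1 lower, beside 28.4% and 27.4%. In iOB against calvarial-OB 2 were higher and 3 lower, beside 24.7% and 24.1%. The median log2 fold changes of these 15 were 0.41, 0.78 and -0.20 in that order. In a grouping made after the values were seen, members and further genes were put together by step. Of 7 listed genes up to farnesyl diphosphate, 2 were higher in iOB than in fibroblasts (median log2 fold change 0.34) and 7 in calvarial-OB than in fibroblasts (0.93). The iOB count of 2 was near the 22.7% of all tested genes that were higher. Of 13 listed genes from squalene synthase onwards, 6 were higher in iOB (0.40) and 8 in calvarial-OB (0.60), and no gene of either set was lower. Over the alternatives the calvarial-OB count stayed at 7 for the earlier genes and ran from 6 to 9 for the later ones. Genes called over all ran from 6580 to 8003 there, against 7494 in the fit as given. The iOB counts were 4 and 8 without calvarial-OB replicate 1 and 4 and 9 when only iOB and fibroblasts were fitted. They were 1 and 5 without fibroblast replicate 1 or iOB replicate 1, and 0 and 6 without iOB replicate 3. In that order, 6729, 6957, 5125, 4830 and 4764 genes were called over all, against 5820 in the fit as given. In iOB against calvarial-OB, 4 of 7 genes up to farnesyl diphosphate were lower (Hmgcs1, Mvk, Pmvk and Fdps) and 0 higher, and of the 13 later genes 1 was higher (Hsd17b7) and 0 lower. Without calvarial-OB replicate 1, 7 of 7 and 4 of 13 were lower, where 7205 genes were called over all, against 6561 in the fit as given.

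Hsd17b7, a ketosteroid reductase of the sterol demethylation steps, was the gene of this list with the largest fold change in iOB. It had 188, 113 and 147 CPM in iOB, 23.0, 40.3 and 40.0 in calvarial-OB, and 29.7, 32.4 and 38.2 in fibroblasts. All iOB libraries were above all others, and calvarial-OB overlapped fibroblasts. It was 4.45-fold higher in iOB than in fibroblasts (log2 fold change 2.15 ± 0.23, edgeR adjusted p = 1.3e-05) and 4.31-fold higher in iOB than in calvarial-OB (2.11 ± 0.23, adjusted p = 1.8e-05). In calvarial-OB against fibroblasts it was 0.05 ± 0.22 (adjusted p = 0.88).

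Among the later sterol enzymes, Ebp, the sterol isomerase, had 58.8, 47.6 and 50.4 CPM in iOB, 38.5, 56.3 and 48.0 in calvarial-OB, and 18.4, 22.8 and 22.6 in fibroblasts. It was higher in iOB (log2 fold change 1.30 ± 0.16) and in calvarial-OB (1.17 ± 0.15) than in fibroblasts, with no overlap with them. Tm7sf2, a sterol reductase, was higher by 1.39 ± 0.18 and 1.24 ± 0.18 in iOB and calvarial-OB, Msmo1, the methylsterol oxidase, by 1.03 ± 0.18 and 1.24 ± 0.18, and Dhcr7, which makes cholesterol from its direct precursor, by 0.76 ± 0.17 and 1.03 ± 0.17 (all edgeR adjusted p at or below 0.0035).

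Early in the pathway, 3 further genes were lower in iOB than in calvarial-OB. Pmvk, phosphomevalonate kinase, had 13.3, 10.6 and 15.2 CPM in iOB, 30.6, 29.7 and 28.0 in calvarial-OB, and 8.86, 8.78 and 9.04 in fibroblasts. The 3 groups did not overlap, and Pmvk was lower in iOB than in calvarial-OB (log2 fold change -1.18 ± 0.15, edgeR adjusted p = 4.8e-05). Fdps, farnesyl diphosphate synthase, was lower in iOB than in calvarial-OB by -0.74 ± 0.19 (adjusted p = 0.008), and Mvk, mevalonate kinase, by -0.75 ± 0.18 (adjusted p = 0.0043).

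**Figure D4:**
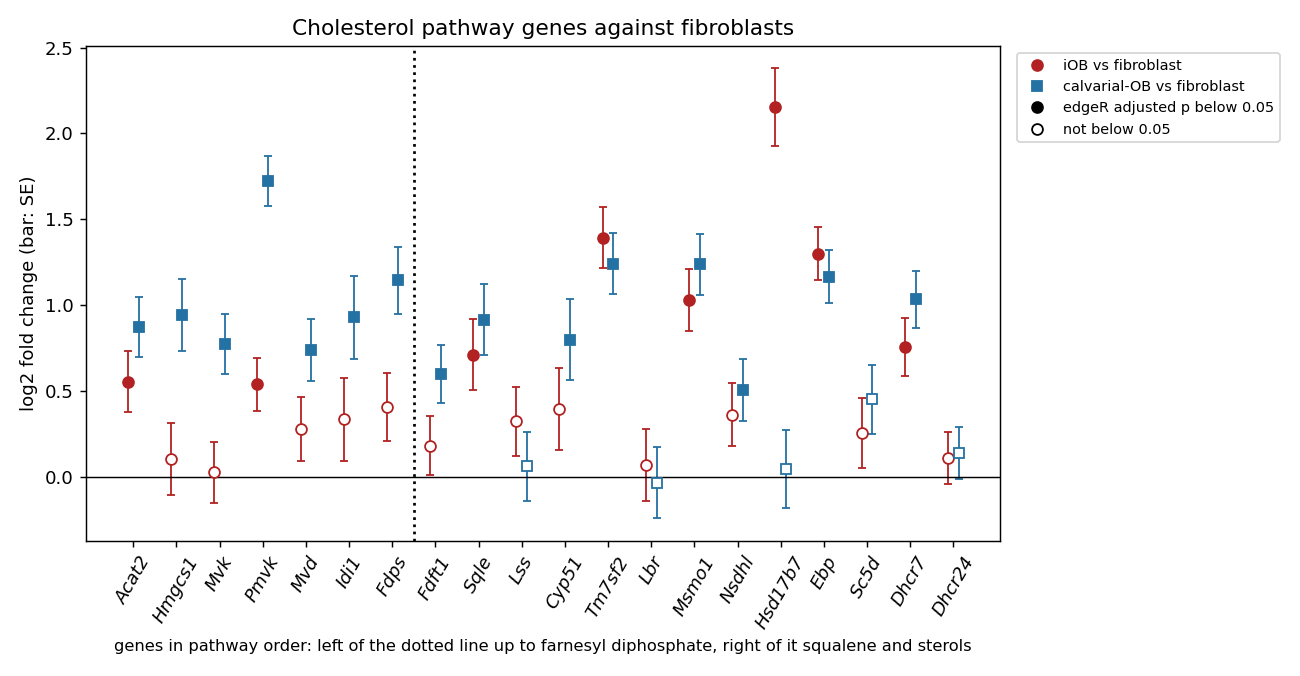
Log2 fold changes with SE (vertical axis) against fibroblasts of the pathway genes in order of their step (horizontal axis), for iOB and calvarial-OB, filled where the edgeR adjusted p was below 0.05. Left of the dotted line 2 of 7 iOB symbols and 7 of 7 calvarial-OB symbols are filled, and right of it 6 of 13 and 8 of 13, with Hsd17b7 at 2.15 in iOB and 0.05 in calvarial-OB. Among all tested genes 22.7% were higher in iOB and 28.4% in calvarial-OB.

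Scap, Srebf1, Mbtps1 and Mylip, of the genes that run or answer the sterol sensor, were higher in iOB than in calvarial-OB. Of 8 listed genes, 4 were higher and 0 lower in iOB than in fibroblasts, beside 22.7% and 20.6% of all tested genes. In calvarial-OB against fibroblasts 1 was higher and 2 lower, beside 28.4% and 27.4%. In iOB against calvarial-OB 4 were higher and 0 lower, beside 24.7% and 24.1%. Scap, the escort of SREBP2, had 88.3, 87.2 and 81.1 CPM in iOB, 49.0, 48.1 and 34.3 in calvarial-OB, and 65.3, 69.0 and 63.6 in fibroblasts. The groups did not overlap, and Scap was higher in iOB than in calvarial-OB by 0.97 ± 0.13 (edgeR adjusted p = 0.0001). It was lower in calvarial-OB than in fibroblasts (-0.60 ± 0.13, adjusted p = 0.0022). In iOB against fibroblasts it was 0.38 ± 0.13 (adjusted p = 0.035), a call lost when any single iOB or fibroblast library was left out (range over alternatives 0.00056 to 0.0972).

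Mbtps1, the protease that makes the first cut in SREBP2, had 262, 247 and 249 CPM in iOB, 133, 141 and 124 in calvarial-OB, and 214, 242 and 214 in fibroblasts. It was lower in calvarial-OB than in fibroblasts (log2 fold change -0.75 ± 0.10, edgeR adjusted p = 4.4e-05) and higher in iOB than in calvarial-OB (0.93 ± 0.10, adjusted p = 1.6e-05). The calvarial-OB libraries lay below all others for both Scap and Mbtps1, as they did for Srebf2. Srebf1, which encodes the related factor SREBP1, was higher in iOB than in fibroblasts (0.57 ± 0.11, adjusted p = 0.0017) and than in calvarial-OB (0.45 ± 0.11, adjusted p = 0.0065). Mylip was higher in iOB than in calvarial-OB by 0.38 (edgeR adjusted p = 0.0231). That call was lost under 4 of the 16 alternatives (adjusted p from 0.00242 to 0.0836 over all). Nr1h3, the oxysterol receptor LXR alpha, was higher in both iOB (1.87 ± 0.21) and calvarial-OB (1.96 ± 0.21) than in fibroblasts.

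Of 7 genes of cholesterol uptake and intracellular transport, 2 were higher and 1 lower in iOB than in fibroblasts, beside 22.7% and 20.6% of all tested genes. In calvarial-OB against fibroblasts 3 were higher and 1 lower, beside 28.4% and 27.4%. In iOB against calvarial-OB 1 was higher and 1 lower, beside 24.7% and 24.1%. Lipa, the lysosomal lipase, was higher in iOB (0.96 ± 0.21) and calvarial-OB (1.16 ± 0.21) than in fibroblasts. The authors' deposited table for iOB GFP+ did not call Lipa (0.19 ± 0.62, authors' adjusted p = 0.84). The gene called lower in iOB was Scarb1, a lipoprotein receptor (-0.39 ± 0.14, adjusted p = 0.046), which was not called under 11 of the 16 alternatives (adjusted p from 0.0129 to 0.237 over all). In the authors' deposited tables Scarb1 was higher in iOB GFP+ than in fibroblasts (0.41 ± 0.12, authors' adjusted p = 0.0026). The table for unsorted iOB did not call it (-0.36 ± 0.17, authors' adjusted p = 0.082). Lrp1, another lipoprotein receptor, was lower in calvarial-OB than in fibroblasts (-1.42 ± 0.18, adjusted p = 3.3e-05).

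In GFP-positive iOB, the authors' deposited table called 4 of the 8 members higher than in fibroblasts and 0 lower, where 23.7% of 16328 genes with an adjusted p were higher, 21.7% lower and 45.5% either. In the authors' deposited table, Insig1 was again the most changed member, at a log2 fold change of 1.81 ± 0.12 SE (adjusted p = 4.3e-53). The authors' deposited table gave Sqle 0.64 ± 0.13 (adjusted p = 2.8e-06), Srebf2 0.41 ± 0.09 (adjusted p = 3.1e-05) and Lss 0.55 ± 0.20 (adjusted p = 0.0128). Srebf2 and Lss were members that had no call in unsorted iOB. The authors' deposited table did not call Hmgcs1 (0.30 ± 0.14, adjusted p = 0.064), Cyp51 (0.35 ± 0.17, adjusted p = 0.067), Fdft1 (0.12 ± 0.13, adjusted p = 0.49) or Idi1 (0.07 ± 0.15, adjusted p = 0.74). For unsorted iOB, the authors' deposited table called 2 of 8 higher, Insig1 (1.19 ± 0.13, adjusted p = 1.2e-17) and Sqle (0.72 ± 0.21, adjusted p = 0.0019), where 19.9% of 16208 genes were higher, 15.0% lower and 34.9% either. Both deposited tables are set against fibroblasts, but the labels do not say which fibroblast libraries stand behind the iOB GFP+ table. The counts of 4 and 2 may therefore rest on unlike references or fits, and the difference between sorted and unsorted iOB was not tested.

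**Figure D5:**
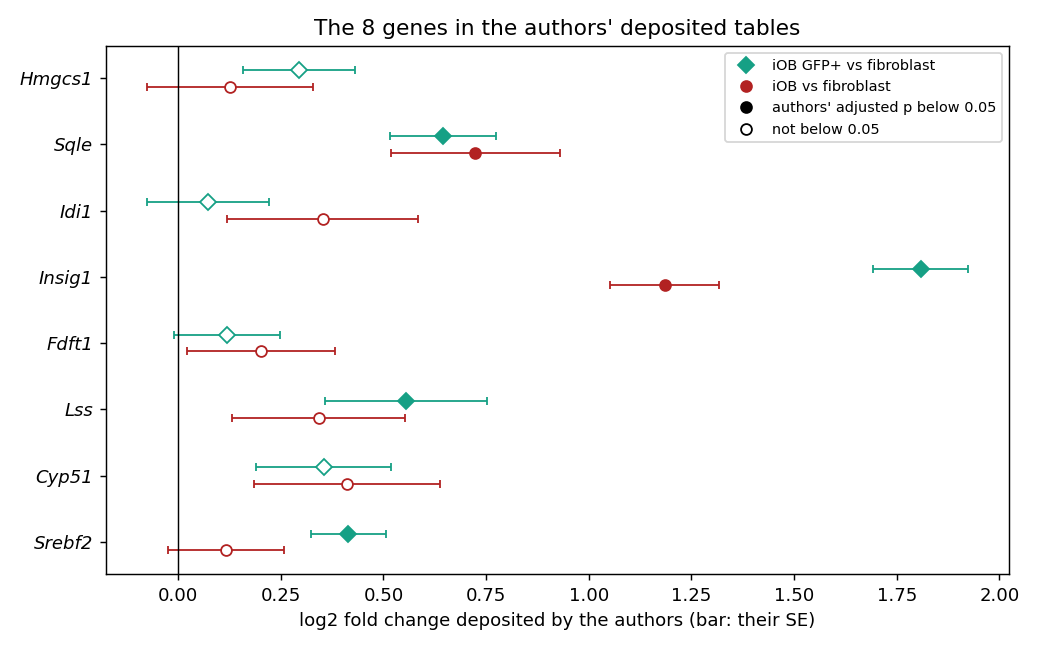
The authors' deposited log2 fold changes with their SE (horizontal axis) for the 8 genes in iOB GFP+ and in iOB, each against fibroblasts, filled where the authors' adjusted p was below 0.05. Insig1 lies at 1.81 in iOB GFP+ and 1.19 in iOB, and 4 symbols are filled for iOB GFP+ and 2 for iOB.

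Around the members, the authors' deposited table for iOB GFP+ called 11 of 15 further synthesis genes higher and 0 lower, with Dhcr7 at 2.14 ± 0.19, Ebp at 1.87 ± 0.18, Tm7sf2 at 1.74 ± 0.21 and Hsd17b7 at 1.71 ± 0.15. The authors' deposited table for unsorted iOB called 7 of 15 higher and 0 lower, with Dhcr7 at 0.77 ± 0.18 and Ebp at 1.31 ± 0.17. Of the 8 sterol-sensor genes, the authors' deposited table called 7 higher in iOB GFP+ and 4 in iOB, Srebf1 standing at 1.41 ± 0.10 in iOB GFP+ and 0.59 ± 0.13 in iOB. Of the uptake genes, the authors' deposited table called 2 higher and 3 lower in iOB GFP+, and 2 higher and 0 lower in iOB. Among all genes with an adjusted p, 23.7% were higher and 21.7% lower in iOB GFP+, and 19.9% and 15.0% in iOB. None of the 10 macrophage markers had an adjusted p in the authors' deposited table for iOB GFP+, where their median log2 fold change was 3.18, whereas in that for iOB 10 of 10 were higher with a median of 4.81. Without values per library, it is not known whether the sorted libraries share the 3.18 or 1 of them carries it. Both of the authors' deposited tables called all 8 osteoblast markers higher.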

How the data were processed

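Poly-A RNA of mouse cells was sequenced. Tools named in the submitters' processing notes, with no roles, are Bowtie2, STAR 2.4.2a, R 3.2.2 and DESeq2, on mm9; the counter, annotation and strand setting are not given in the sources used here. The authors deposited whole-number counts per gene symbol for 9 libraries, and the OB columns of that table were read as calvarial-OB by name. Per the file headers, the authors' comparison tables hold log2 fold changes with SE, a mean normalized signal, a test score and p-values, raw and adjusted, all printed as deposited. The deposited methylation windows were not used.

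The 9 libraries were fitted together in R 4.3.3 with edgeR 4.0.16 (limma 3.58.1, TMM, filterByExpr, quasi-likelihood test, group as the only term). A gene was called at an adjusted p (Benjamini-Hochberg over 13438 genes) below 0.05. The same fit was also run on counts simulated from the means and the common spread of these libraries, with no deviating library among them. CPM are on TMM-scaled library sizes and are not per length, so levels are not compared between genes. The SE is the absolute log2 fold change over the square root of F. Alternatives were DESeq2 1.42.0, its size factors, upper-quartile scaling, no filter, the 2 compared groups alone, a replicate block, Rn45s left out and each library left out. Figures used Python 3.11.15 and matplotlib 3.10.9. The text may name the 8 members, the genes of the pathway lists and the 5 genes most alike in profile. Members and lists were chosen with earlier results of these data known. Some genes of the pathway lists are not reported here and are left out of the list counts.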

Additional observations from a re-analysis of the deposited data

How the results depend on the processing

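In iOB against fibroblasts, the count of members called (2) was 4 when only the 2 groups were fitted, adding Idi1 (edgeR adjusted p = 0.00888) and Cyp51 (0.0109). It was 1 to 4 with each library left out, 1 without fibroblast replicate 1 or iOB replicate 1 and 4 without calvarial-OB replicate 1. Genes called over all numbered 6957, 5125, 4830 and 6729 in these fits, in that order, against 5820 in the fit as given. In calvarial-OB against fibroblasts the count (6) ranged from 5 to 7, and in iOB against calvarial-OB (3) from 2 to 7, 7 without calvarial-OB replicate 1. Genes called over all ranged from 6580 to 8003 (7494 in the fit as given) and from 5435 to 7205 (6561), the 7205 without calvarial-OB replicate 1. Upper-quartile scaling gave 0 higher and 4 lower in the last comparison, against 1 and 2 with TMM, and moved the median of all genes to -0.11. Signs near 0 turned in calvarial-OB against fibroblasts, Lss at -0.11 and -0.04 (range to 0.24) and Hsd17b7 at -0.0403, -0.0572 and -0.0774 (range to 0.25). With the replicate number as a block, 5614, 7364 and 6303 genes and 2, 6 and 4 members were called in the 3 comparisons. Deviations of log CPM from the group mean were also correlated between same-numbered libraries. The r values were -0.083, 0.014 and -0.016 (iOB and fibroblasts), 0.147, -0.008 and 0.147 (calvarial-OB and fibroblasts) and -0.146, -0.127 and -0.071 (iOB and calvarial-OB). With 3 libraries a group, these values cannot show whether the numbers pair the samples. Of 384 member results under alternatives, 361 kept direction and side of the threshold, 8 lost and 13 gained a call, and 2 changed sign. At a threshold of 0.01 the authors' tables called 2 members in iOB and 3 in iOB GFP+, where 4367 of 16208 and 5958 of 16328 genes were called. The causes were not tested, and 3 libraries a group limit small changes.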

Other observations

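Of 8 listed genes of cholesterol export and oxysterols, 5 were higher and 1 lower in iOB than in fibroblasts, beside 22.7% and 20.6% of all tested genes. In calvarial-OB against fibroblasts 4 were higher and 1 lower, beside 28.4% and 27.4%. In iOB against calvarial-OB 2 were higher and 1 lower, beside 24.7% and 24.1%. Of 7 with an adjusted p in the authors' deposited table for iOB GFP+, 1 was higher and 1 lower, beside 23.7% and 21.7% of all genes there. Apoe had no adjusted p in that table. Apoe, the apolipoprotein of lipid export and also an abundant macrophage transcript, had 523, 699 and 723 CPM in iOB, 1140, 505 and 426 in calvarial-OB, and 3.86, 3.82 and 3.40 in fibroblasts. Macrophage markers summed to 2022, 3128 and 3264 CPM in the same iOB libraries and to 5226, 2926 and 3555 in the calvarial-OB libraries, and their part in the Apoe levels was not tested. Abcg1, a sterol exporter, had 20.9, 26.6 and 31.6 CPM in iOB, 14.4, 9.68 and 11.4 in calvarial-OB, and 7.44, 4.11 and 4.56 in fibroblasts. It was higher in iOB than in calvarial-OB (log2 fold change 1.16 ± 0.23, edgeR adjusted p = 0.0013). Ch25h, cholesterol 25-hydroxylase, had 1.97, 4.24 and 4.25 CPM in iOB, against 24.5, 29.1 and 34.3 in calvarial-OB. Cyp7b1, an oxysterol hydroxylase, was lower than in fibroblasts in both iOB (-1.65 ± 0.31) and calvarial-OB (-2.06 ± 0.31).

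Of 10 fatty acid synthesis genes, 3 were higher and 3 lower in iOB than in fibroblasts, beside 22.7% and 20.6% of all tested genes. The same counts held for calvarial-OB against fibroblasts, beside 28.4% and 27.4%. In iOB against calvarial-OB 3 were higher and 4 lower, beside 24.7% and 24.1%. Scd1, the stearoyl-CoA desaturase, had 157, 143 and 149.7 CPM in iOB, 864, 646 and 1133 in calvarial-OB, and 108, 136 and 149 in fibroblasts. All calvarial-OB libraries were above the others, and Scd1 was higher there than in fibroblasts (2.75 ± 0.19, edgeR adjusted p = 3.2e-07). Adipocyte markers summed to 493, 489 and 772 CPM in these calvarial-OB libraries, and their part in the Scd1 levels was not tested. Fads2, a fatty acid desaturase, ran the other way, at 75.9, 72.9 and 70.8 CPM in iOB, 25.1, 33.6 and 26.1 in calvarial-OB, and 77.7, 79.3 and 80.2 in fibroblasts. Fasn, fatty acid synthase, was lower in iOB than in fibroblasts (-0.55 ± 0.13, adjusted p = 0.0048), and Acly, which supplies acetyl-CoA, was lower in both iOB (-0.50 ± 0.11) and calvarial-OB (-0.49 ± 0.11).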
